A study of Mus musculus with 18 samples.

Results

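The complement and coagulation factor genes of the mouse liver are described here across 3 diets. They were 37 genes chosen by function, each read by the Affymetrix Mouse430_2 probe sets paired with that gene symbol and no other. Where a gene had several such probe sets the brightest stood for it. Of the 37 genes, 34 had a probe set of their own and all 34 passed the filter on dim genes, against 13645 genes tested in all. No probe set of its own was listed for C3 or Cfd, and the probe set of C4b was shared with C4a, so these 3 genes were not analysed here. Every mouse was a male C57BL/6J, bought at an age of 5 weeks, kept for a week on a nonpurified diet and then fed a test diet for 20 weeks. The quercetin group (n = 6) ate a Western-style diet to which 0.05% quercetin, a plant flavonol, had been added. The Western group (n = 6) ate the same diet without it, which took 39.9% of its energy from fat and 34.0% from sucrose and held 20% butter, 1% soy oil and 0.15% cholesterol. The control group (6 arrays, counted as n = 5) ate AIN93G, a purified rodent diet. Mice were housed 3 to a cage and the cages are not identified, and AIN93G with quercetin was not analysed here.

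Complement is a cascade of plasma proteins that tags foreign or damaged surfaces: the classical and lectin pathways start it, the alternative pathway amplifies it, and the terminal components insert a pore into the membrane. Coagulation is a cascade of plasma serine proteases that ends with thrombin cutting fibrinogen to fibrin, and plasmin dissolves the clot. Most of these proteins are secreted by hepatocytes, several clotting proteases need vitamin K for the gamma-carboxylation that lets them bind calcium and membranes, and properdin is mainly a product of myeloid cells.

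Levels are given as quantile-normalized log2(value + 16) of the deposited array intensity, and they are comparable between mice for 1 gene but not between genes. A change was called at a Benjamini-Hochberg adjusted p under 0.05 in limma, adjusted over all 13645 genes of a comparison. The trimmed mean intensity of the arrays, before normalization, was 82.3 to 95.4 in the quercetin group, 80.2 to 101.8 in the Western group and 66.7 to 80.8 in the control group. Control arrays 4 and 5 were so alike (SD of their log2 difference 0.0464 over the 2500 brightest probe sets, against 0.157 for the next closest pair) that their mean was used as a single sample, called 4-5. The log2 ratio of the 3' to the 5' actin probe sets, a measure of RNA integrity, was 0.45 to 0.65 in the quercetin group, 0.39 to 0.68 in the Western group and 0.62 to 0.77 in the control group.

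The liver label was checked against 10 hepatocyte markers, whose summed signal was 54488 to 59207 in the quercetin group, 53652 to 56625 in the Western group and 55979 to 60105 in the control group. In the Western group against control 9 of the 10 had differences below 0, with a median of -0.12, and 2 were called lower, Tat (-0.79, limma adjusted p = 0.0253) and Pck1 (-0.56, adjusted p = 0.0431), enzymes of amino acid breakdown and of glucose synthesis. In the quercetin group against control 9 of the 10 were again below 0 (median -0.08) and none was called. Of all genes tested, 5.49% were called higher and 3.16% lower in the Western group against control, and 3.43% and 1.98% in the quercetin group against control. Markers of other cells also differed with diet. The summed signal of 10 macrophage and Kupffer cell markers was 4397 to 12221 in the quercetin group, 5346 to 9490 in the Western group and 3510 to 4192 in the control group, and 6 of the 10 were called higher in each Western-fed group against control. Stellate cell markers, 7 genes, summed to 2030 to 3319 in the quercetin group, 2093 to 2956 in the Western group and 1654 to 1815 in the control group, with 4 of the 7 called higher in each Western-fed group. Exocrine pancreas markers ran the other way, with sums over 2 measured genes of 177 to 248 in the quercetin group, 209 to 285 in the Western group and 416 to 866 in the control group. In such bulk tissue, fewer cells of a type and less RNA per cell cannot be told apart, and the part of hepatocytes and of these other cells in the results below was not tested.

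On the Western-style diet the liver levels of several coagulation protease genes (F11, F7, F10, Klkb1 and Proc) were lower than on the control diet, and so were those of 2 subunits of complement C8 (C8b and C8g), while Pros1, an anticoagulant cofactor, was higher. The calls of Proc and C8g were the weakest, held in 3 and 5 of the 11 fits that left out 1 mouse. Those of F10 and Klkb1 held in all 11. None of these 4 was called without normalization or with array medians centred. Of the 34 members, 10 were called in the Western group against control (9 lower, 1 higher), where 8.65% of all genes tested were called (3.16% lower, 5.49% higher), and 17 had an unadjusted p under 0.05, against 23.3% of all genes. The Western-fed and control mice did not overlap for 11 members (10 lower, 1 higher), against 6.9% of all genes (2.73% lower, 4.17% higher). The median log2 difference of the 34 members was -0.08, with 26 of 34 below 0, beside a median of -0.01 and 53.0% below 0 for all genes tested. These directions depend on the scaling. Without any normalization between arrays the median over all genes was +0.22 and the member median was +0.06. Then 14 of 34 members were below 0. The 10 members then called were 7 higher and 3 lower, where 3641 of the 13645 genes tested were called higher and 84 lower. Those 10 calls are therefore not to be read against the 8.65% of the main fit. Relative to the median of all genes, 26 of 34 members were lower without normalization. Centring array medians shifts all genes of an array alike, so it cannot change that count and is no further check of it. With array medians centred 6 members were called (2 higher, 4 lower), where 1108 of all genes tested were called higher and 176 lower. F11, C8b and F7 were called lower and Pros1 higher under all 3 scalings.

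**Figure D1:**
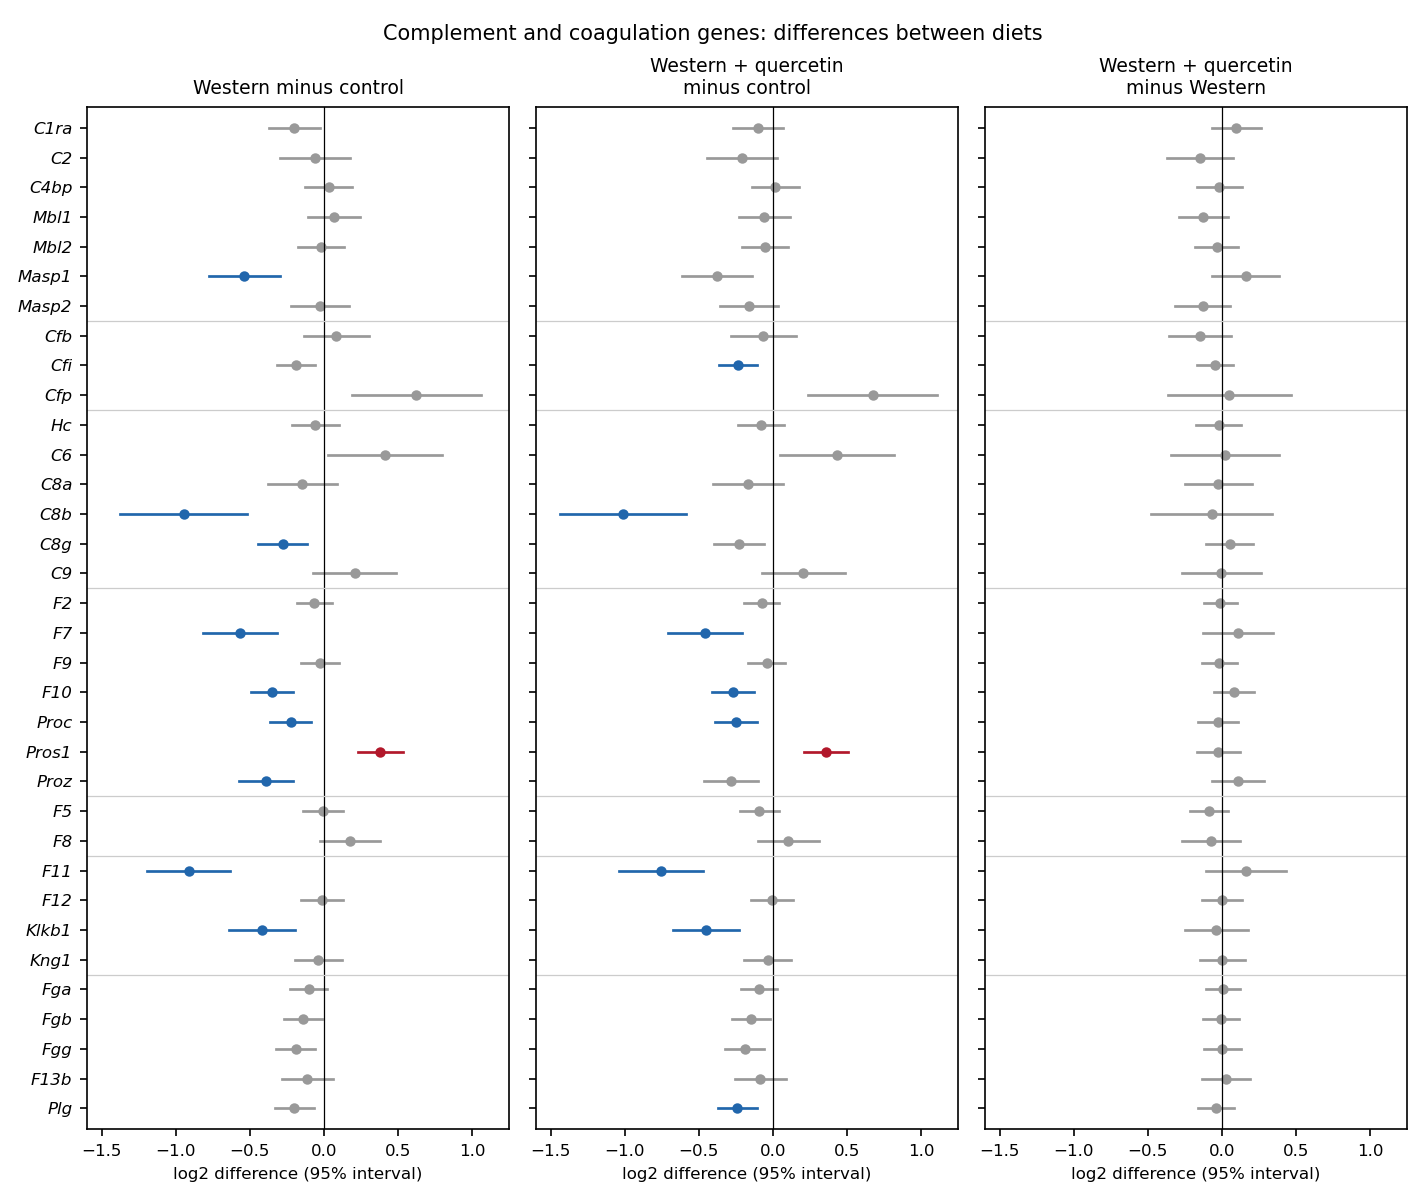
Log2 differences between diet groups for the 34 members tested, in role order (grey lines separate the roles), with the 95% confidence interval of the limma fit as a bar. Red marks genes called higher and blue genes called lower; the left panel (Western against control) has 10 coloured genes, the middle panel (Western with quercetin against control) 9, and the right panel (Western with quercetin against Western) none.

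The contact system starts the intrinsic route of coagulation: factor XII and plasma prekallikrein (Klkb1) activate each other on surfaces with kininogen (Kng1), and factor XIIa activates factor XI. F11 lay between 7.76 and 8.43 in the quercetin group (median 8.17), between 7.80 and 8.34 in the Western group (median 7.89), and at 8.77, 8.84, 8.74, 9.07 and 9.10 in the control mice. Every mouse on a Western-style diet was below every control mouse. F11 was 1.88-fold lower in the Western group than in the control group (log2 difference -0.91 ± 0.13 SE, limma adjusted p = 0.000589) and 1.69-fold lower in the quercetin group than in the control group (-0.75 ± 0.13, adjusted p = 0.00322). It was also called in the Western group against control within the mice numbered 1 to 3 (-0.92, adjusted p = 0.0441) and within those numbered 4 to 6 (-0.97, adjusted p = 0.0425), the 2 sets into which the arrays fell.

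Klkb1 lay between 9.31 and 9.94 in the quercetin group (median 9.64), between 9.59 and 10.05 in the Western group (median 9.66), and at 10.09, 10.21, 10.13, 10.13 and 10.13 in the control mice. The groups did not overlap, although Western mouse 6 came within reach of the lowest control mouse. Klkb1 was 1.34-fold lower in the Western group (-0.42 ± 0.11 SE, limma adjusted p = 0.0205) and 1.37-fold lower in the quercetin group (-0.45 ± 0.11, adjusted p = 0.0171) than in the control group. The other contact genes did not pass: F12 had a log2 difference of -0.01 in the Western group against control (limma adjusted p = 0.937) and Kng1 one of -0.04 at its brightest probe set (adjusted p = 0.817). Of this system, F11 and Klkb1 encode proteases and passed the test, whereas F12, another protease gene, and Kng1, a cofactor gene, did not.

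The vitamin K dependent proteins are encoded by 7 members, and 5 of them were called in the Western group against control, 4 lower and 1 higher. Over all genes tested 8.65% were called there (3.16% lower, 5.49% higher). Factor VII starts the extrinsic route when it meets tissue factor. F7 lay between 8.90 and 9.15 in the quercetin group (median 9.02), between 8.41 and 9.20 in the Western group (median 8.94), and at 9.34, 9.37, 9.59, 9.39 and 9.69 in the control mice. No mouse on a Western-style diet reached the lowest control mouse. F7 was 1.48-fold lower in the Western group (-0.56 ± 0.12 SE, limma adjusted p = 0.00689) and 1.37-fold lower in the quercetin group (-0.46 ± 0.12, adjusted p = 0.0318) than in the control group.

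Factor X is where the intrinsic and extrinsic routes meet. F10 lay between 10.40 and 10.67 in the quercetin group (median 10.53), between 10.40 and 10.57 in the Western group (median 10.42), and at 10.76, 10.89, 10.79, 10.80 and 10.75 in the control mice. The control mice formed a narrow band above all 12 others. F10 was 1.28-fold lower in the Western group (-0.35 ± 0.07 SE, limma adjusted p = 0.00328) and 1.20-fold lower in the quercetin group (-0.27 ± 0.07, adjusted p = 0.0247) than in the control group.

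Protein Z, the product of Proz, is a cofactor for the inhibition of factor Xa. Its gene lay between 9.36 and 9.72 in the quercetin group (median 9.51), between 9.24 and 9.62 in the Western group (median 9.41), and at 9.82, 9.77, 9.75, 9.74 and 9.97 in the control mice. Proz did not overlap with control in either group, and was 1.31-fold lower in the Western group than in the control group (-0.39 ± 0.09 SE, limma adjusted p = 0.00959). In the quercetin group it had a difference of -0.28 ± 0.09 from control, with an adjusted p of 0.0674 that missed the threshold.

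Protein C, encoded by Proc, cuts factors Va and VIIIa once activated, and protein S, encoded by Pros1, is its cofactor. Proc lay between 10.73 and 10.90 in the quercetin group (median 10.79), between 10.75 and 10.93 in the Western group (median 10.82), and at 10.90, 11.08, 11.01, 11.11 and 11.17 in the control mice. The groups touched at control mouse 1, the lowest of its group. Proc was 1.17-fold lower in the Western group (-0.23 ± 0.07 SE, limma adjusted p = 0.0422) and 1.19-fold lower in the quercetin group (-0.25 ± 0.07, adjusted p = 0.0343) than in the control group. Pros1 lay between 8.05 and 8.37 in the quercetin group (median 8.23), between 8.12 and 8.34 in the Western group (median 8.25), and at 7.76, 7.87, 7.83, 7.86 and 7.98 in the control mice, so that every mouse on a Western-style diet was above every control mouse. Pros1 was the 1 member called higher: 1.3-fold in the Western group (+0.38 ± 0.07 SE, limma adjusted p = 0.00315) and 1.28-fold in the quercetin group (+0.36 ± 0.07, adjusted p = 0.0069) against control. Prothrombin (F2) and factor IX (F9), the remaining vitamin K dependent members, had log2 differences of -0.07 and -0.03 in the Western group against control (limma adjusted p = 0.532 and 0.837).

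**Figure D2:**
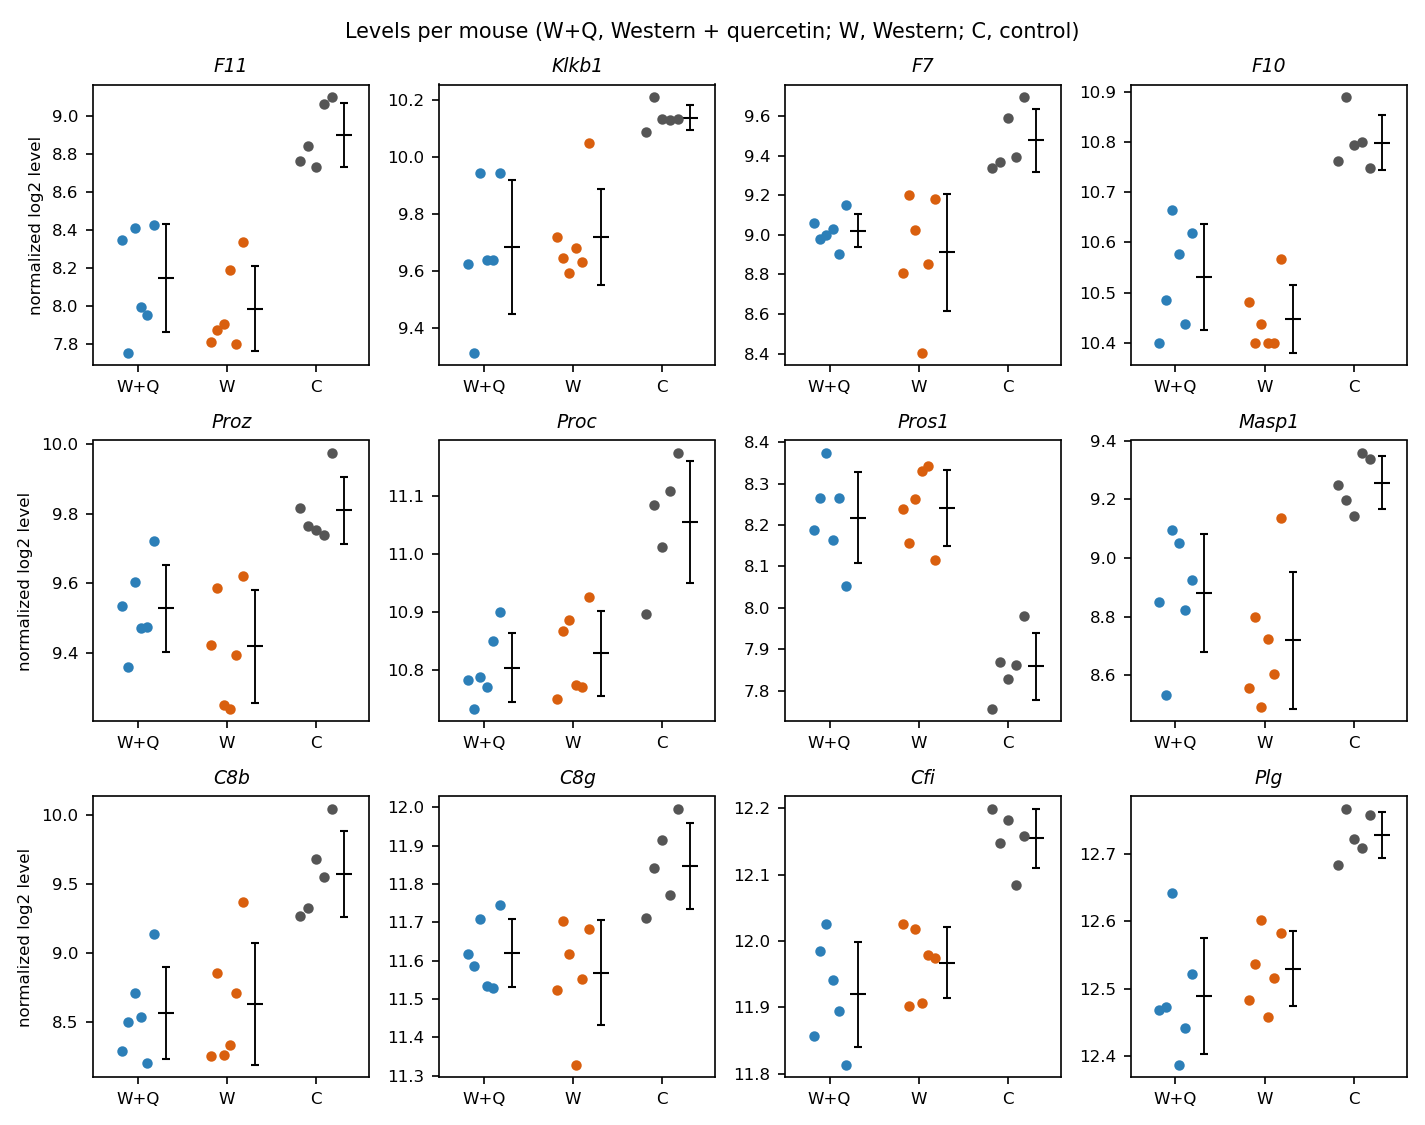
Quantile-normalized log2 level per mouse (points) of the 12 members called in a comparison with the control diet, for Western with quercetin (W+Q, n = 6), Western (W, n = 6) and control (C, n = 5), with the mean and SD as a bar beside the points; the vertical scale differs between panels and does not start at 0. Pros1 is the panel in which both Western-fed means lie above the control mean, and for the other 11 genes they lie below it.

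The cofactors of coagulation are not proteases. F5, the gene of the factor V that assists factor Xa, had a log2 difference of -0.01 in the Western group against control, with a 95% interval of -0.14 to 0.13. F8, the gene of the factor VIII that assists factor IXa and is made mainly by endothelial cells, had a difference of +0.18 (limma adjusted p = 0.297). The coagulation members called in the Western group encode proteases (F7, F10, F11, Klkb1, Proc), a protease-like cofactor without catalytic activity (Proz) and the cofactor Pros1.

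All 5 members that encode fibrinogen, the F13b chain of factor XIII or plasminogen had negative differences in the Western group against control and none was called. Their median was -0.14 and their range -0.20 to -0.10 (F13b, a chain of the fibrin-linking factor XIII, had -0.11). F13a1, the gene of the other factor XIII chain, was not a member. Its mean was 5.25 in the Western group and 4.90 in the control group. Plg, the plasminogen gene, lay between 12.39 and 12.64 in the quercetin group (median 12.47), between 12.46 and 12.60 in the Western group (median 12.53), and at 12.68, 12.77, 12.72, 12.71 and 12.76 in the control mice. The groups did not overlap. Plg was 1.18-fold lower in the quercetin group than in the control group (-0.24 ± 0.06 SE, limma adjusted p = 0.0295), and its difference of -0.20 ± 0.06 in the Western group had an adjusted p of 0.0529. Fgg, the gamma chain of fibrinogen, also separated both Western-fed groups from control with differences of -0.19 in the quercetin group and -0.19 in the Western group (limma adjusted p = 0.0875 and 0.067), neither of which passed.

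Complement had fewer calls than coagulation: 3 of 16 complement members (all lower) and 7 of 18 coagulation members (6 lower, 1 higher) in the Western group against control. Over all genes tested 8.65% were called there (3.16% lower, 5.49% higher). Of the 3 complement calls, that of Masp1 rests on 1 of its 5 probe sets. The difference in shares between complement and coagulation was not tested. Complement component C8 is built of 3 chains, alpha, beta and gamma, encoded by C8a, C8b and C8g, and it anchors the membrane attack pore. C8b lay between 8.20 and 9.14 in the quercetin group (median 8.52), between 8.25 and 9.37 in the Western group (median 8.52), and at 9.27, 9.33, 9.69, 9.55 and 10.04 in the control mice. Of the mice on a Western-style diet, only Western mouse 6 was above the 2 lowest control mice. C8b had the largest fall of the 34 members in both comparisons: 1.93-fold in the Western group (-0.95 ± 0.20 SE, limma adjusted p = 0.00771) and 2.02-fold in the quercetin group (-1.01 ± 0.20, adjusted p = 0.00685) against control.

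C8g lay between 11.53 and 11.74 in the quercetin group (median 11.60), between 11.33 and 11.70 in the Western group (median 11.58), and at 11.71, 11.84, 11.91, 11.77 and 12.00 in the control mice. The Western mice stayed below all control mice and the highest quercetin mouse did not. C8g was 1.21-fold lower in the Western group than in the control group (-0.28 ± 0.08 SE, limma adjusted p = 0.0365), while its -0.23 ± 0.08 in the quercetin group had an adjusted p of 0.11. C8a, the chain that pairs with C8g through a disulfide bond, had differences of -0.17 in the quercetin group and -0.15 in the Western group (limma adjusted p = 0.432 and 0.484). Of the other terminal genes none was called. Hc, the mouse gene of C5, had -0.06 in the Western group against control, C9, which polymerizes into the pore, had +0.21, and C6 had +0.41 with an adjusted p of 0.179.

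Subunits of 1 protein were compared mouse by mouse after subtracting group means, over 17 samples and 6 pairs, with two-sided permutation tests (100000 resamples within groups) adjusted over the 6 pairs. The resamples treated the mice of a group as exchangeable, although mice deviated together along their numbers and the sets into which the arrays fell. The permutation p values make no allowance for this, and its part in the correlations was not tested. C8a and C8b varied together (Pearson r 0.74, adjusted permutation p = 0.00666; Spearman rho 0.75, adjusted permutation p = 0.00438), and r was 0.69 without the 2 samples farthest from the median. C8b and C8g also did (r 0.72, adjusted permutation p = 0.0096; rho 0.73, adjusted permutation p = 0.00828; r 0.66 without 2 samples), whereas C8a and C8g gave r 0.46 (adjusted permutation p = 0.185; rho 0.54). The 3 fibrinogen pairs did not pass: Fga and Fgb had r 0.37, Fga and Fgg 0.37, and Fgb and Fgg -0.06 (rho 0.46, 0.34 and 0.00061). With array medians centred in place of quantile normalization all 6 pairs passed, at r between 0.54 and 0.81, so the contrast between C8 and fibrinogen rests on the normalization.

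The lectin pathway begins with mannose-binding lectins (Mbl1, Mbl2) and their proteases (Masp1, Masp2), and the classical pathway with C1 (C1ra encodes a protease of it), then C4 and C2. Over all genes tested 8.65% were called in the Western group against control. Of 7 tested members of these pathways 1 was called there, a count near that share: Masp1, through its brightest probe set. That probe set lay between 8.53 and 9.10 in the quercetin group (median 8.89), between 8.49 and 9.14 in the Western group (median 8.66), and at 9.25, 9.20, 9.14, 9.36 and 9.34 in the control mice. Western mouse 6 all but met control mouse 3, and the groups did not overlap. It was 1.45-fold lower in the Western group (-0.54 ± 0.11 SE, limma adjusted p = 0.00689) and had -0.38 ± 0.11 in the quercetin group (adjusted p = 0.0608). The Western values of the other 6 members of these pathways overlapped with control, with differences between -0.20 (C1ra, limma adjusted p = 0.143) and +0.07 (Mbl1), and C2, Mbl2, Masp2 and C4bp, an inhibitor of the classical pathway, lay in between.

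Masp1 yields several proteins by alternative splicing and termination, among them MASP-1, MASP-3 and a short form without a protease domain. Its other 4 probe sets did not follow the brightest: in the Western group against control they had log2 differences of +0.34, +0.29, +0.25 and +0.05, and averaged over all 5 probe sets the gene had +0.078 (limma adjusted p = 0.53). Which Masp1 transcript each probe set reads was not analysed here, so the fall is that of 1 probe set and not of the gene. F10 and Proz were uniform in this respect. The 3 probe sets of F10 had -0.35, -0.39 and -0.49, and the 2 of Proz had -0.39 and -0.49. Properdin (Cfp) had +0.62 at its brightest probe set and -0.23 at a dim one. Kng1, at -0.03 in the quercetin group and -0.04 in the Western group at its brightest probe set, had -0.24 and -0.18 at its other one (limma adjusted p = 0.0644 and 0.159 over all probe sets). Of the 34 members 26 had a single probe set, so that no such check could be made for them.

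**Figure D3:**
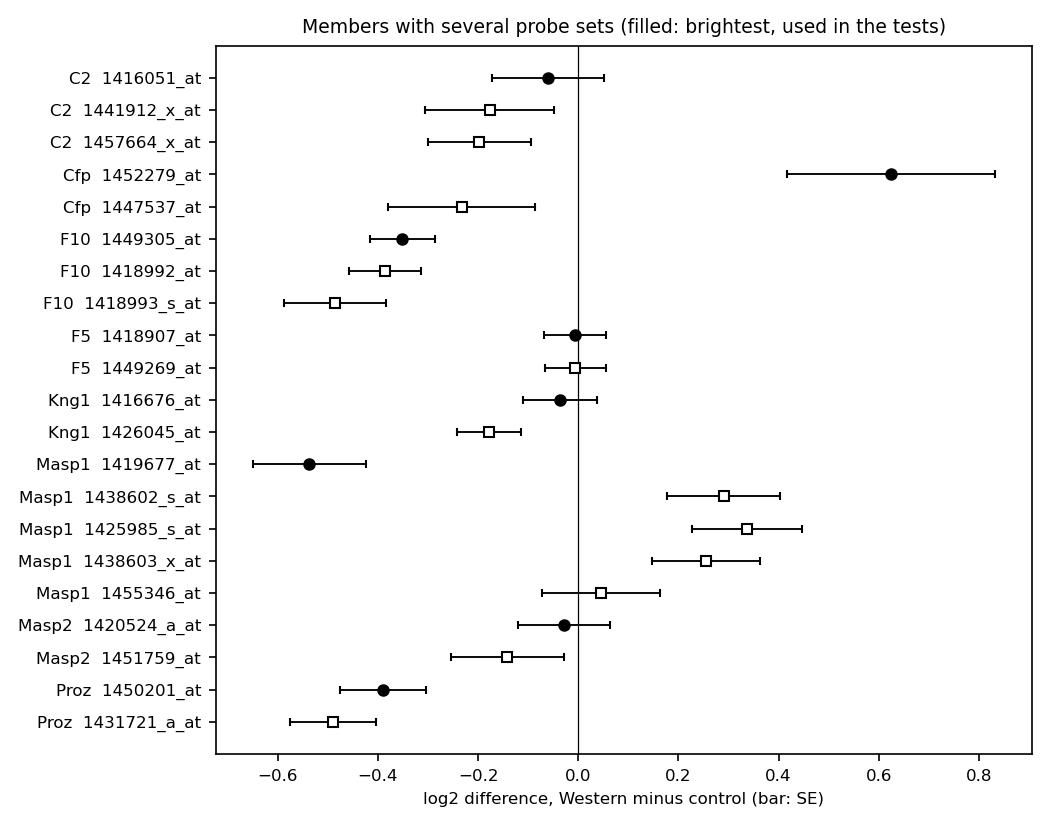
Log2 difference of the Western group minus the control group (bar, SE of a fit to all probe sets) for each probe set of the 8 members that had several, with the probe set used in the tests filled. The 5 probe sets of Masp1 lie on both sides of 0, from -0.54 to +0.34, whereas the 3 of F10 and the 2 of Proz all lie below -0.3.

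The alternative pathway amplifies complement through factor B (Cfb) on a C3b surface that properdin (Cfp) stabilizes, and factor I (Cfi) cuts C3b and C4b to end it. Cfi lay between 11.81 and 12.03 in the quercetin group (median 11.92), between 11.90 and 12.03 in the Western group (median 11.98), and at 12.20, 12.15, 12.18, 12.08 and 12.16 in the control mice. All 12 mice on a Western-style diet were below the control mice. Cfi was 1.18-fold lower in the quercetin group than in the control group (-0.23 ± 0.06 SE, limma adjusted p = 0.0307) and had -0.19 ± 0.06 in the Western group (adjusted p = 0.0664). Cfp had the largest positive difference of the members, +0.68 ± 0.21 in the quercetin group and +0.62 ± 0.21 in the Western group against control (limma adjusted p = 0.0654 and 0.0705), neither called. The macrophage markers given above were higher in the same groups.

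In the quercetin group against control, 9 of 34 members were called (8 lower, 1 higher), where 5.41% of all genes were called (1.98% lower, 3.43% higher), and 16 had an unadjusted p under 0.05, against 19.9% of all genes. Groups did not overlap for 11 members (10 lower, 1 higher), against 4.65% of all genes (2.1% lower, 2.55% higher). The member median was -0.10 with 28 of 34 below 0, beside -0.01 and 53.6% for all genes. Without normalization all genes again had a median of +0.22 and 7 members were called (5 higher, 2 lower). There 3197 of the 13645 genes tested were called higher and 58 lower, so the 7 are not to be read against 5.41%. With array medians centred 5 members were called (2 higher, 3 lower), where 575 of all genes tested were called higher and 104 lower. This comparison and that of the Western group share their control mice, so their likeness is not a repeat measurement. Of the 12 members called in at least 1 of them, F11, Klkb1, F7, F10, Proc, Pros1 and C8b were called in both, Masp1, Proz and C8g in the Western group, and Plg and Cfi in the quercetin group.

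Adding quercetin to the Western-style diet changed none of the 34 members by the limma test, with 0 calls and 0 members at an unadjusted p under 0.05. Over all genes tested 0% were called in this comparison, with 392 of 13645 genes (2.87%) at an unadjusted p under 0.05. The differences of the members lay between -0.15 and +0.16 with a median of -0.01, and no member separated the groups (0.132% of all genes did, 0.066% higher and 0.066% lower). The 3 smallest p values belonged to Mbl1, Cfb and Masp1. Mbl1 lay between 10.13 and 10.56 in the quercetin group (median 10.35) and between 10.32 and 10.59 in the Western group (median 10.43), and at 10.40, 10.33, 10.42, 10.30 and 10.44 in the control mice, a difference of -0.13 ± 0.08 SE between the Western-fed groups (limma unadjusted p = 0.131).

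Cfb lay between 10.42 and 10.89 in the quercetin group (median 10.63) and between 10.60 and 11.13 in the Western group (median 10.71), and at 10.65, 10.61, 10.79, 10.59 and 10.79 in the control mice. Its difference between the Western-fed groups was -0.15 ± 0.10 SE (limma unadjusted p = 0.15), with 5 of 6 quercetin mice below the Western mean, and the groups overlapped over most of their range. Masp1 had +0.16 ± 0.11 (unadjusted p = 0.155). A change that these 12 mice cannot tell from 0 is not shown to be absent. For F11 the 95% interval of the quercetin difference was -0.11 to 0.43, for C8b -0.48 to 0.34, for F7 -0.13 to 0.35, for F10 -0.05 to 0.22 and for Pros1 -0.17 to 0.12. The interval for F11 reached part of the way back to the control level, which lay 0.91 above the Western group.

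**Figure D4:**
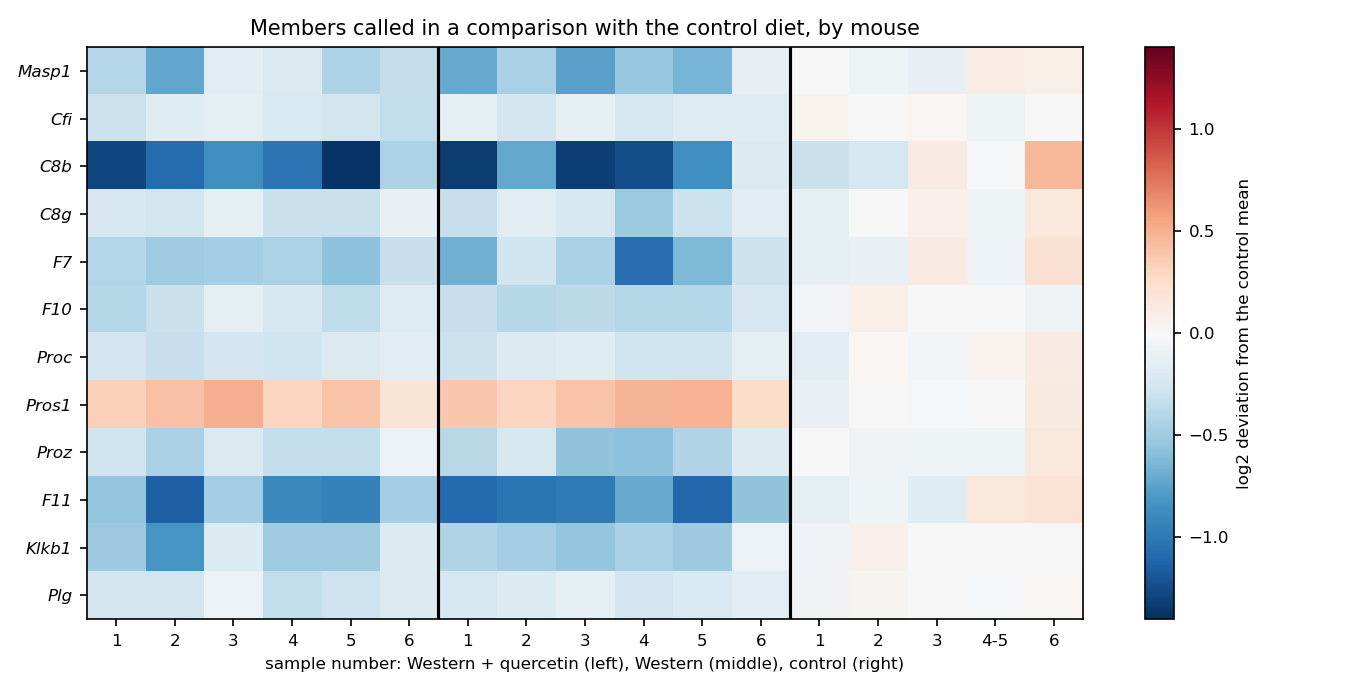
Log2 deviation from the control mean (colour, scale at the right) of the 12 members called in a comparison with the control diet (rows), for each mouse (columns; Western with quercetin left, Western in the middle, control right). C8b and F11 hold the darkest blue cells, Pros1 is red in all 12 mice on a Western-style diet, and mouse 6 is the palest for many rows in both Western-fed groups.

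Of the 9 members called lower in the Western group against control, mouse 6 had the highest level of its group in 7 in the quercetin group, in 7 in the Western group and in 6 in the control group. Over all genes tested, mouse 6 was the highest of its group for 17.9% of genes in the quercetin group, 17.03% in the Western group and 23.8% in the control group. Quercetin mouse 2 had the lowest level in 5 of the 9 members and for 18.9% of all genes, and control mouse 1 had it in 5 of the 9 and for 23.2%. These are ranks of members that share mice, and no test was made. The mouse with the lowest macrophage marker sum of the quercetin group was mouse 6 (4397) and the one with the highest was mouse 2 (12221), while in the Western group mouse 6 had a sum of 6192 and the lowest sum, 5346, was that of mouse 2. These mice were singled out after their values were seen.

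Several members are neighbours on the chromosome, in the order of protein-coding genes of RefSeq GRCm38.p6: F7, F10 and Proz on chromosome 8, F11 and Klkb1 elsewhere on chromosome 8, C8b and C8a on chromosome 4, Fgg, Fga and Fgb on chromosome 3, and Cfb and C2 on chromosome 17. The flanking genes were looked up after the member values were seen. F7, F10 and Proz were all lower in the Western group, at -0.56, -0.35 and -0.39. Of the 5 tested genes among the 3 on either side, only Lamp1, which encodes a lysosomal membrane protein, was called, and it was higher (+0.27 ± 0.08 SE, limma adjusted p = 0.0355). Tubgcp3, Atp11a, Pcid2 and Cul4a had differences between -0.21 and -0.09.

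F11 and Klkb1, which arose by duplication of a common ancestor, were both lower, and their nearest tested neighbours Mtnr1a and Cyp4v3 had +0.02 and -0.15 in the Western group against control (limma adjusted p = 0.971 and 0.561). None of the 5 tested genes among the 3 on either side of this pair was called in the Western group. C8b and C8a are adjacent, yet C8b had -0.95 and C8a -0.15, and the groups of C8a overlapped. The tested flanks of this pair lay between -0.15 and +0.07. The 3 fibrinogen genes (Fgg, Fga, Fgb) had -0.19, -0.10 and -0.14.

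**Figure D5:**
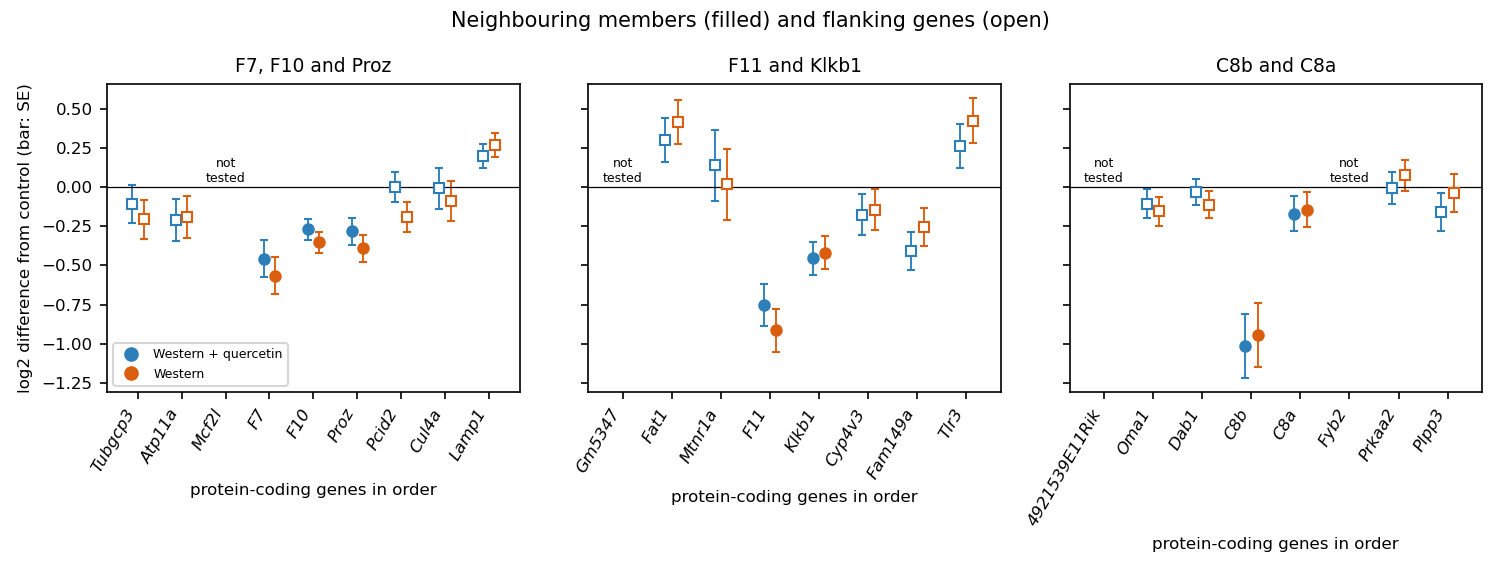
Log2 difference from control (bar, SE) of 3 runs of neighbouring members (filled circles) and of the protein-coding genes on either side (open squares), in chromosome order, for Western with quercetin (blue, left of each pair) and Western (orange); genes without a value are marked as not tested. F7, F10 and Proz lie below their flanking genes, and C8b lies far below its neighbour C8a.

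The promoters of 3 of these runs, those on chromosomes 8 and 4 that hold called members, and of Pros1, the member that rose, are shown. All members of the runs on chromosome 8 were called lower in the Western group against control. Of the adjacent pair C8b and C8a only C8b was called, and whether their diet differences were unequal was not tested. The promoters are RefSeq sequences on GRCm38.p6, from 250 bases before to 50 bases after the annotated start, written 5′ to 3′ along the gene. Capitals mark matches, on either strand, to the motifs searched that were found in them: the STAT dimer motif TTCNNNGAA, the C/EBP palindrome TTGCNNAA and the HNF1 motif GTTAAT.
F11 (chr8:45261982-45262281, minus strand): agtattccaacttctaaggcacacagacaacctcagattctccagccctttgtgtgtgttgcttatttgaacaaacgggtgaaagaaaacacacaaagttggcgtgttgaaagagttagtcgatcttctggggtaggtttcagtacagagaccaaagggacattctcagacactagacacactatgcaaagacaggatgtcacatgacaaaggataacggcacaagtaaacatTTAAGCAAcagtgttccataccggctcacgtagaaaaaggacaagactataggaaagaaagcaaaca
Klkb1 (chr8:45294786-45295085, minus strand): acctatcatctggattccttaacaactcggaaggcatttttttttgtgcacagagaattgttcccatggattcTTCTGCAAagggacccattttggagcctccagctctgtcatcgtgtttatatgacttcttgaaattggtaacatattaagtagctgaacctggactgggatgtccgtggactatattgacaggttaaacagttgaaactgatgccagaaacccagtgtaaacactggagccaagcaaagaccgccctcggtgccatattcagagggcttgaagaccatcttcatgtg
F7 (chr8:13025784-13026083, plus strand): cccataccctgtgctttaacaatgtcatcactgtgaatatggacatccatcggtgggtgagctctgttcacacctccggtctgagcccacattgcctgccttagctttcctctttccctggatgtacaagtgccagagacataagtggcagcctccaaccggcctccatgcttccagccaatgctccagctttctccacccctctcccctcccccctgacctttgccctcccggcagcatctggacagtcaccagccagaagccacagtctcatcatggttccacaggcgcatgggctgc
F10 (chr8:13037058-13037357, plus strand): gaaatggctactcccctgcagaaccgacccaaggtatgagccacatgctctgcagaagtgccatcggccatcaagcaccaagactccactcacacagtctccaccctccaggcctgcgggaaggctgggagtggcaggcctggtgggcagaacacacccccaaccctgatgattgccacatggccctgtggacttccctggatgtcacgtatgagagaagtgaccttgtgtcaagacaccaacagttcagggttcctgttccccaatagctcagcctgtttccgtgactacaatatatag
Proz (chr8:13060658-13060957, plus strand): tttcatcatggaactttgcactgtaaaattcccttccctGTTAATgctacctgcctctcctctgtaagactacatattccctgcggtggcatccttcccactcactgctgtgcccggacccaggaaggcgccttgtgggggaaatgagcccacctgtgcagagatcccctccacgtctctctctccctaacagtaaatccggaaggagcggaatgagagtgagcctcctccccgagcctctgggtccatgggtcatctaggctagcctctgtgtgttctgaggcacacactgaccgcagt
C8b (chr4:104766067-104766366, plus strand): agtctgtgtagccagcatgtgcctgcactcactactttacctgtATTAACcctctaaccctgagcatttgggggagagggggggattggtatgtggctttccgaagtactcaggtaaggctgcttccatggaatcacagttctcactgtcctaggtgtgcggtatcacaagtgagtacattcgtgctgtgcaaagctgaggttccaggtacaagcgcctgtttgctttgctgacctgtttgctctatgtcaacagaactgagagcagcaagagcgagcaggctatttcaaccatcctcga
C8a (chr4:104876349-104876648, minus strand): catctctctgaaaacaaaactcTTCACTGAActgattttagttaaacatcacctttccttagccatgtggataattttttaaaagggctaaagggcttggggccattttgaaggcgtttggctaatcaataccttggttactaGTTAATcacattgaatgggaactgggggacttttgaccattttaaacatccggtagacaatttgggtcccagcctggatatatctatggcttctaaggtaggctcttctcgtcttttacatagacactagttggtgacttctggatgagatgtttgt
Pros1 (chr16:62854057-62854356, plus strand): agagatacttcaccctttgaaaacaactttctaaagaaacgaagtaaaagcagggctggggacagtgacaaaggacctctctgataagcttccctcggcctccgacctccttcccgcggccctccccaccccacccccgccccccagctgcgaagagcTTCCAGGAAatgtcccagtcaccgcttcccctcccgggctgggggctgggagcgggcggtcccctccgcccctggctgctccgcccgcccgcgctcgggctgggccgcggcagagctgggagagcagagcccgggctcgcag

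The F11 window held a C/EBP match at position -17 relative to the start and the Klkb1 window one at -177. HNF1 matches lay at -211 in Proz, -206 in C8b and -107 in C8a, and the C8a window also held a STAT match at -228. Pros1 had a STAT match at -92, and F7 and F10 held none of the motifs searched. Of 30 windows available for 29 of the 37 members, 11 held the HNF1 motif (36.7%, against 7.10% of all 32851 promoters), 8 the C/EBP palindrome (26.7% against 10.8%) and 7 the STAT motif (23.3% against 8.30%). None of the 30 held GGNNTTTCC (NF-kappaB, in 5.82% of all promoters), GAAANNGAA (interferon response, 8.56%), CACGTG (E-box, 7.15%), ATCACCCC (sterol element, 0.770%) or CAAAGTCCA (HNF4, 0.475%). HNF1 and C/EBP proteins are transcription factors known for driving hepatocyte genes. A match describes letters in a window and shows no binding.

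The wider pathway was measured with 61 further receptors, regulators, inhibitors and components, of which 48 had a probe set of their own and 43 were tested. In the Western group against control 13 of the 43 were called (9 higher, 4 lower), with a median of +0.07, where 8.65% of all genes were called (5.49% higher, 3.16% lower), so that calls of higher genes were the more frequent over all genes too. Those that fell are, like most members, plasma proteins of the liver. Serpind1, the thrombin inhibitor heparin cofactor II, was at 10.76 ± 0.11 in the Western group and 11.18 ± 0.09 in the control group (SD, n = 6 and 5; difference -0.41, limma adjusted p = 0.00134). Serpinf2, the plasmin inhibitor alpha-2-antiplasmin, was at 10.88 ± 0.10 in the Western group and 11.31 ± 0.06 in the control group (-0.43, adjusted p = 0.00507), and Cfhr2, a factor H related gene, had -0.45 (adjusted p = 0.0257).

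The genes that rose included complement genes of macrophages. The complement receptor gene C3ar1 was at 6.34 ± 0.18 in the Western group and 5.61 ± 0.26 in the control group (SD; difference +0.72, limma adjusted p = 0.00826), the C1q chain gene C1qb had +0.92 (adjusted p = 0.0263) and Itgb2, the beta chain of complement receptor 3, had +0.97 (adjusted p = 0.0316). Tfpi, the inhibitor of the tissue factor pathway, had +0.49 (limma adjusted p = 0.0121), Vwf, the carrier of factor VIII, +0.50 (adjusted p = 0.0441), and Colec11, a lectin that starts the lectin pathway, +0.39 (adjusted p = 0.0146). Itgam, the alpha chain of complement receptor 3, was counted among the 9 but passed the filter on dim genes through the Western group alone (mean 4.55 without the Western mice, under the minimum of 4.56), so its difference is not read. Macrophage marker sums were higher in the same groups. The other 30 did not pass. Among them, and named after their values were seen, were Ggcx (-0.02, limma adjusted p = 0.9) and Vkorc1 (-0.09, adjusted p = 0.537), which encode the carboxylase and the reductase of the vitamin K cycle that modifies the products of F7, F10, Proc, Pros1 and Proz.

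In the quercetin group against control 7 of the 43 were called (5 higher, 2 lower), where 3.43% of all genes were called higher and 1.98% lower. Serpind1 had -0.35 (limma adjusted p = 0.00543), Serpinf2 -0.33 (adjusted p = 0.0321), Colec11 +0.45 (adjusted p = 0.00756), C3ar1 +0.66 (adjusted p = 0.0202), Plaur, the urokinase receptor, +0.44 (adjusted p = 0.0204), Tfpi +0.43 (adjusted p = 0.0347) and C1qb +0.86 (adjusted p = 0.0479). Between the quercetin and Western groups none of the 43 was called by limma, and 2 had an unadjusted p under 0.05, Itgam, with the same limit, and A2m, which encodes a broad protease inhibitor (-0.28), both named after their values were seen. A2m was dim too, with a mean of 4.63 in the quercetin group and 4.92 in the Western group, near the filter minimum of 4.56.

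The calls differed in how well they held. In the Western group against control, F11, C8b, F7, F10, Masp1, Pros1, Proz and Klkb1 were called in all 11 fits that left out 1 mouse, C8g in 5 and Proc in 3. In the quercetin group against control F11, C8b, Pros1 and Klkb1 were called in all 11, F7 and F10 in 6, Cfi in 5, Plg in 4 and Proc in 2. With the replicate number as a block, Cfi and F10 were no longer called there (limma adjusted p = 0.0558 and 0.0564). In place of 9 members 4 were called without quercetin mouse 5 or control mouse 3, and 5 without quercetin mouse 1 or 2 or control mouse 2 or 6. Over the 11 fits of this comparison, calls among all genes tested ran from 460 to 949, beside 738 in the main fit. With the actin ratio of each array as a covariate, 2 members (F11 and F10) were called in the Western group and none in the quercetin group against control. Of the 13645 genes tested, 150 were then called higher and 77 lower in the Western group, and 91 higher and 64 lower in the quercetin group. F11 then had -0.67 in the quercetin group (limma adjusted p = 0.0574) and -0.83 in the Western group (adjusted p = 0.0227). Arrays numbered 1 to 3 and 4 to 6 stood apart, and within each set of at most 6 Western and control mice 1 member, F11, was called in the Western group. Among all genes tested, 53 were called higher and 35 lower there in numbers 1 to 3, and 190 higher and 106 lower in numbers 4 to 6. C8b had -0.97 and -0.99 in the sets (limma adjusted p = 0.0566 and 0.153), and Pros1 +0.40 and +0.34 (adjusted p = 0.107 and 0.153).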

How the data were processed

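Liver RNA of each mouse was labelled and hybridised to its own Affymetrix array, per the labels' protocols. The values are the authors' deposited intensity per probe set on a linear scale (0.0118 to 12323), with summarization and scaling not given in the sources used here. All 18 arrays were mapped by title. Of 45101 probe sets, 64 controls were left out. The deposited intensity was converted to log2(value + 16) and quantile normalized, so folds are ratios of value + 16 and understate changes of dim genes. The brightest probe set paired with exactly 1 symbol stood for each of 18193 genes, and 13645 with a mean of at least 4.56 (the 25th percentile) were tested. Symbols came from the platform annotation, and all 34 measured members matched RefSeq by gene identifier.

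Group means were fitted to 17 samples with limma 3.58.1 in R 4.3.3 (two-sided, eBayes, Benjamini-Hochberg within each comparison). The procedure was tested on simulated data. Mice are the replicates, and their number limits the precision: 95% intervals had a median width of 0.244 (log2) to either side against control and 0.233 between the Western-fed groups. Correlations used SciPy 1.17.1. Python 3.11.15 with matplotlib 3.10.9 made the figures.

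The members, the lists, the tests and the averaging of control arrays 4 and 5 were chosen with earlier results of these data known. Values are given for members called in any comparison and for the 3 with the smallest p in each, and further pathway genes are named where called, up to 10 a comparison. Deviations of same-numbered mice in different groups had correlations of -0.26 to 0.32, with 13 of 16 pairs over 0.1. The labels do not explain the sets numbered 1 to 3 and 4 to 6. Of pairs with different numbers in the same set 12 of 32 were over 0.1, and across the sets 1 of 48. The main fit took in neither the numbers nor the sets, although mice deviated together along them. Fits with either as a block, and values within each set, are reported.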

Additional observations from a re-analysis of the deposited data

Results flagged for a closer look

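In 6 of 102 sets of a member and a group, 1 mouse stood far from the others by Dixon's test, and chance flags about 1 in 20 sets. C4bp, an inhibitor of the classical pathway, was at 11.83 in Western mouse 4, above the other Western mice, and at 11.92 in control mouse 1, above the other control mice. C8a was at 10.83 in Western mouse 1, below the rest of its group. Klkb1 was at 10.05 in Western mouse 6, which was also the highest Western mouse for F11 and C8b. F2 was at 12.42 in quercetin mouse 3, above the rest of its group, and at 12.35 in control sample 4-5, below the rest of its group. The fall of Klkb1 in the Western group against control was called in all 11 fits that left out 1 mouse, and F2, C4bp and C8a were called in no comparison.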

How the results depend on the processing

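Counts of called genes run here in the order members, other pathway genes and all genes, first for the Western group against control (10, 13 and 1180) and then for the quercetin group against control (9, 7 and 738). With the values as deposited, other pathway genes and all genes were 21 and 3725, then 18 and 3255. With array medians centred, members were 6, then 5. Without a filter on dim genes, other pathway genes were 8 in the Western group. With only the 2 groups compared, the quercetin group had 5, 3 and 466. Within mice numbered 1 to 3 the counts were 1, 0 and 88, then 1, 0 and 224, and within those numbered 4 to 6 they were 1, 1 and 296, then 0, 0 and 32. With the actin ratio as covariate they were 2, 1 and 227, then 0, 1 and 155. With control arrays 4 and 5 separate, other pathway genes in the quercetin group were 11, and with a block for the set of numbers 12. Leaving out each mouse gave 8 to 11, 5 to 13 and 748 to 1394, then 4 (without quercetin mouse 5 or control mouse 3) to 11, 2 (without control mouse 2) to 13 and 460 to 949. Quercetin against Western had 0 calls in every setting for all 3 kinds of count. With the replicate number as a block, in place of no pairing, members were 10 and then 7, and all genes 1143 and then 717. Averaging the probe sets of Masp1 turned its Western difference to +0.078. With array medians centred, r was 0.61 for Fga and Fgb, 0.72 for Fga and Fgg, 0.54 for Fgb and Fgg (-0.06 otherwise) and 0.58 for C8a and C8g, and with the values as deposited 0.61 for Fga and Fgg. Where no value is given beside a setting above, counts stayed within 1.5 times and correlations on the same side of the threshold. The cause of these shifts was not tested.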
